A study of Mus musculus with 2 samples.

Results

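Acinar cells of the mouse pancreas were selected from a single-cell table and graded by their level of Tff2, which encodes a secreted trefoil peptide. A cell was taken as acinar where at least 10% of its unique molecular identifiers (UMIs, the counted RNA molecules) came from the 10 enzyme and cofactor genes Ctrb1, Try4, Cela1, Prss2, Cela3b, Cpb1, Pnlip, Clps, Cela2a and Cpa1. That held for 275 of 728 cells (37.8%, exact 95% interval 34.2 to 41.4). The 275 cells were ranked by the share of their UMIs that came from Tff2 and divided in order into 3 tiers of near-equal size, a low tier of 91 cells, a middle tier of 93 and a high tier of 91. Both values that chose the cells were read from the same counts, so the levels of Tff2 and of the 10 enzymes describe the selection and are no finding.

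All cells came from adult mice of the genotype Tff2CreERT2; R26-tdTomato, given as tamoxifen induced. In these mice a tamoxifen-activated Cre recombinase is made where Tff2 is transcribed, and it turns on tdTomato, a red fluorescent protein (RFP) encoded at Rosa26, for good. Whole pancreas was digested with collagenase, and the sort took RFP-positive, EpCAM-positive cells without CD45 or TER119 on their surface, which went into 10x Genomics libraries. The labels name 2 biological replicates of this 1 group and no control group, and no label ties a cell to a replicate. All values below therefore describe 1 pooled sample, have no replicate check and carry no p-value. Their 95% intervals are exact and cover counting error only.

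Acinar cells make the digestive enzymes of the pancreas. The enzymes are synthesised on the rough endoplasmic reticulum, mostly as inactive zymogens, packed into granules and released at the cell apex when cholecystokinin or acetylcholine reaches the cell. Tff2 is best known from the stomach, where mucous neck cells secrete it into the mucus. The gate was set to take cells whose Tff2-driven reporter was on, and how strictly it held was not tested. Although it was also set to leave out TER119-positive and CD45-positive cells, the 453 cells outside the acinar class held 87089 UMIs of erythroid, 3671 of B or plasma and 1285 of T or NK cell markers.

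The enzyme rule left a gap between the cells inside and outside. The lowest cell taken had 11.4% of its UMIs from the 10 genes and the next had 13.7%, the highest cell left out had 8.94%, and 271 of the 275 cells stood at 20% or above. Ctrb1 alone made up 152674 counts per 1000000 UMIs (CPM) in the low tier, 155967 in the middle and 155181 in the high. Ctrl and Rnase1, acinar products that the rule did not use, were each seen in all 91 low, 93 middle and 91 high cells. Their detection in the cells outside is not given, so this does not test the acinar label. Epcam, the gene of the epithelial protein used in the sort, was seen in 4, 6 and 3 cells of the low, middle and high tier, and the reporter row RFP in 0, 1 and 1 cells, so neither transcript could be compared at this depth.

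The tiers differed in depth. They held 240290, 541011 and 398432 UMIs from low to high, with medians of 1504, 2708 and 2710 UMIs and 237, 418 and 426 genes per cell. With every cell thinned to 1000 UMIs, the median was 143 genes per cell in the low tier, 201 in the middle and 198 in the high. The 10 enzymes took 52.0%, 54.4% and 52.7% of the summed UMIs, while their median per cell was 58.5%, 53.1% and 51.4%. Mitochondrial transcripts took 2.14%, 0.864% and 1.02%. Barcodes ended in 1 or 2, and ending 2 was held by 17, 14 and 15 cells of the low, middle and high tier (18.7%, 15.1% and 16.5%). There were 7 barcode sequences that occurred under both endings, and their 14 cells stood in the low (4), middle (3) and high (7) tier. Leaving these 14 cells out changed the ratio of Tff2 between the high and low tier from 3.16 to 3.28. The genes called higher and lower, given below, became 10 and 24 of 395 tested.

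**Figure D1:**
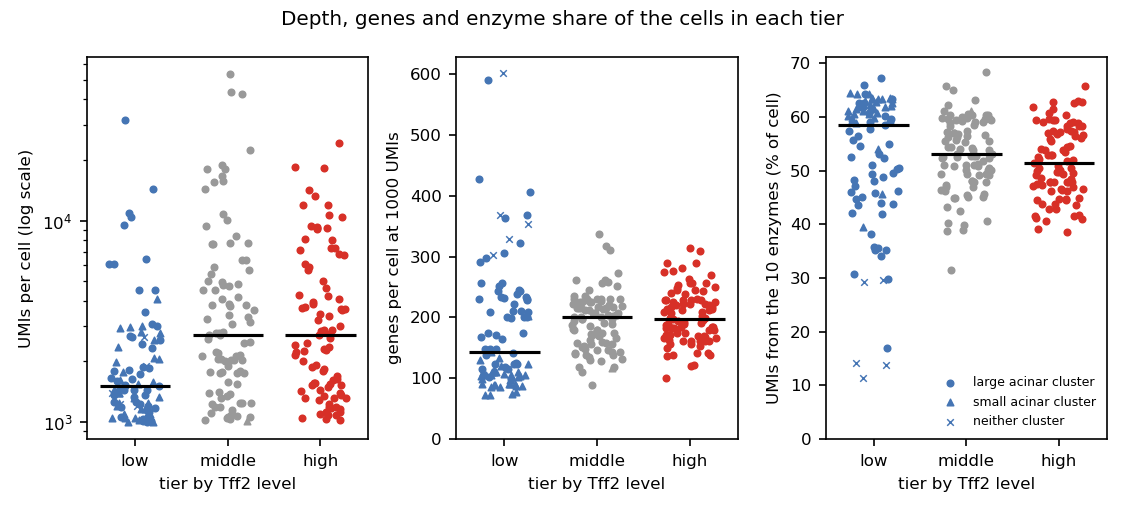
UMIs per cell on a log scale (left), genes per cell after thinning to 1000 UMIs (centre) and the percent of UMIs from the 10 enzymes (right), 1 point per cell, for the low, middle and high tier. Black lines are medians. The low tier stands at 1504 UMIs and 143 genes against 2710 and 198 in the high tier, and its triangles, the small acinar cluster, hold few genes and a high enzyme share.

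The cells did not form 1 cloud. Clustering of all 728 cells put 233 of the 275 acinar cells in a large cluster and 37 in a small one, and 5 cells fell among other cell types. The low tier was made of 50 cells of the large cluster, 36 of the small cluster and all 5 of the others. The middle tier held 92 and 1, and the high tier 91 cells of the large cluster alone. Tff2 was among the genes clustered, so this division is a description. The contrast of the high with the low tier thus sets large-cluster cells against a mixture, and the main results below are also given for tiers cut within the large cluster.

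Tff2 (chromosome 17, 31141049 to 31144282, minus strand, GRCm38) had 722 UMIs in the low tier, 3275 in the middle and 3789 in the high. Summed levels were 3005 CPM (2790 to 3232), 6053 (5848 to 6264) and 9510 (9209 to 9818). In single cells the low tier ran from 0 to 4510 CPM with a median of 2433. The middle tier ran from 4532 to 7444 with a median of 6259, and the high tier from 7446 to 23211 with a median of 9259. At least 1 Tff2 UMI was seen in 86 of the 91 low cells, in all 93 middle cells and in all 91 high cells, and the 5 cells without one were all in the low tier.

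**Figure D2:**
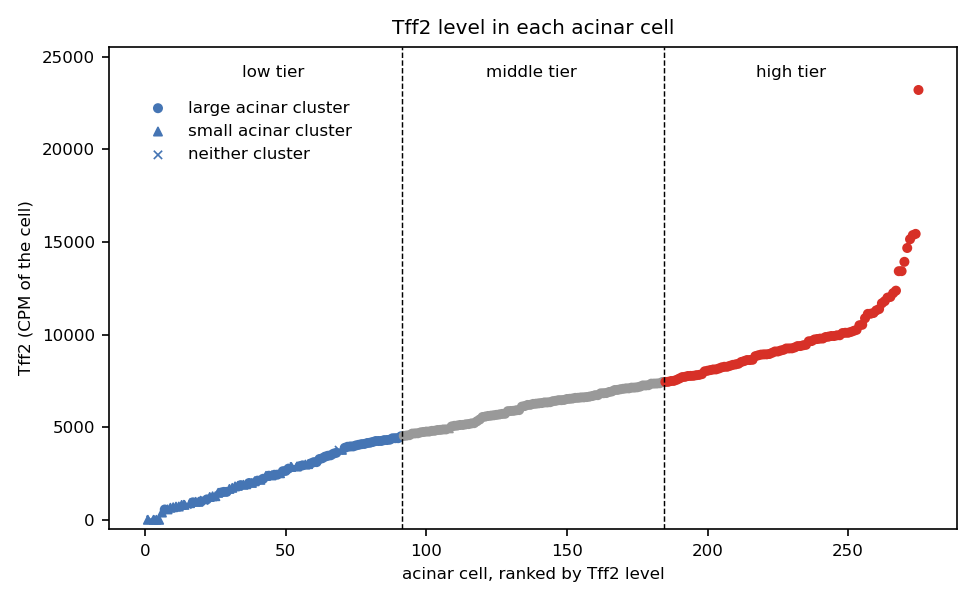
Tff2 level of each of the 275 acinar cells in CPM, ordered by rank, with dashed lines at the limits of the tiers and symbols for the cluster of each cell. The limits lie at 4510 to 4532 and at 7444 to 7446, and 1 cell reaches 23211.

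The spread of Tff2 among acinar cells was set beside counting error, as a description without an interval. The variance of its counts over the variance of a Poisson count at each cell's depth was 4.90 over the 275 cells, 4.29 within the large cluster, where the level was 6919 CPM (6765 to 7075), and 1.11 within the small cluster, where it was 1477 CPM (1189 to 1813). Part of the distance between the tiers came from ranking on the counts that were then summed. When cells were ranked on a random 50% of their UMIs and measured on the rest, Tff2 stood at 3694 CPM in the low tier and 8727 in the high, a ratio of 2.36 in place of 3.16. Depth moved with the rank. Of the 92 shallowest cells 47 were in the low tier and 23 in the high, and of the 92 deepest 12 and 39, with median Tff2 levels of 4184 and 6971 CPM. The Spearman correlation of Tff2 with UMIs per cell was 0.28 over 275 cells and 0.15 over the 233 cells of the large cluster, 2 values that share depth and are descriptions. The part of depth in the grade was not tested.

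Tff2 transcripts were also seen outside the acinar cells, and whether these were free RNA or made in those cells was not tested. The 453 other cells held 106 Tff2 UMIs, 90.3 CPM, with a UMI in 88 cells (19.4%, 15.9 to 23.4) at a median depth of 2079 UMIs against 2117 in acinar cells. Set against enzyme transcripts, they held 6.63 Tff2 UMIs per 1000 UMIs of the 10 enzymes (5.42 to 8.01). The small-cluster cells of the low tier held 2.33 (1.86 to 2.88) and the large-cluster cells of the low tier 7.17 (6.62 to 7.76), against 18.1 (17.5 to 18.6) in the high tier. The interval of the large-cluster low cells overlapped that of the cells outside the class and the interval of the small cluster lay below it. The low and the high tier were both chosen by Tff2, so their values follow from the ranking and are descriptions. All acinar cells together, not cut by Tff2, held 12.4 (12.1 to 12.7).

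Secreted products that differed between the tiers in either direction are shown with the DNA upstream of their start sites, since acinar enzyme genes are known for a promoter element bound by the PTF1 complex, whose parts read CACCTG and TTTCCC. Each sequence is the 250 bases before the start of the gene in RefSeq (GRCm38.p6), written 5′ to 3′ on the gene's strand, and capitals mark CACCTG or TTTCCC on either strand (read as CAGGTG or GGGAAA on the other). Reg1 and Rnase1 had higher levels in the high tier, Cela2a and Reg2 lower ones.
Reg1, chr6:78425733-78425982, plus strand: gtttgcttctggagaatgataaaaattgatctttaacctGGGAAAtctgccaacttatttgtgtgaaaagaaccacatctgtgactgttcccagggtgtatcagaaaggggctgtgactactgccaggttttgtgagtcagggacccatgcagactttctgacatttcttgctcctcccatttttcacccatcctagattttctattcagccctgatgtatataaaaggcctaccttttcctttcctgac
Rnase1, chr14:51146768-51147017, minus strand: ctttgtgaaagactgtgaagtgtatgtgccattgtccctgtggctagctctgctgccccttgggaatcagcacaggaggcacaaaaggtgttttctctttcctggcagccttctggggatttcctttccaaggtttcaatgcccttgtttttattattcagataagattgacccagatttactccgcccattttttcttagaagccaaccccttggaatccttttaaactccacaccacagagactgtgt
Cela2a, chr4:141826006-141826255, minus strand: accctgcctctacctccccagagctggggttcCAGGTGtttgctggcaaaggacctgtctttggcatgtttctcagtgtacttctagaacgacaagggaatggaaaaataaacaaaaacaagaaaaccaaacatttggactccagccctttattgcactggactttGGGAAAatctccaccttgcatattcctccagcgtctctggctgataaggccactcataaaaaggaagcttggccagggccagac
Reg2, chr6:78404905-78405154, plus strand: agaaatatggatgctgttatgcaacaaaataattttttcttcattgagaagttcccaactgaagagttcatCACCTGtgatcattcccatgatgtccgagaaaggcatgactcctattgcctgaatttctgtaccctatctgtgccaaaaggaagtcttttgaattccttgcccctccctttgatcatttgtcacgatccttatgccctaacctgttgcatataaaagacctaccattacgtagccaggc
Cela2a held both parts, CACCTG 218 bases and TTTCCC 84 bases before the start. Reg2 held CACCTG at 179 bases, Reg1 held TTTCCC at 211 bases, and Rnase1 neither. Of 32851 promoters of this length, 17.2% held CACCTG, 21.9% TTTCCC and 3.61% both, so a match is common, and it describes the letters only.

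Between the high and the low tier, 413 genes had at least 50 UMIs over both. A gene was called at a ratio of at least 2 in either direction. By that rule 12 genes (2.91%) were higher in the high tier, Tff2 among them, and 19 (4.6%) were lower, and the median log2 ratio over the 413 genes was 0.09. Across the 3 grades, 139 genes stood in rising order, 84 in falling order and 190 in neither. With each cell weighted equally 47 genes were higher and 23 lower and the median over all genes was 0.34. With cells ranked within 3 strata of depth 21 of 465 genes were higher and 9 lower.

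The 10 enzymes together had nearly the same share in both tiers but not the same makeup. Clps, colipase, which lets pancreatic lipase work on fat in the presence of bile salts, stood at 60918 CPM in the low tier, 86087 in the middle and 93662 in the high (log2 ratio 0.62). Its cells ran from 3839 to 182540 CPM with a median of 27820 in the low tier, and from 19286 to 303030 with a median of 68592 in the high, so the ranges overlapped over most of their length. Cpb1, procarboxypeptidase B, was at 28928 and 36694 CPM in the low and high tier (0.34). Cela1 and Cela3b, both elastases, each had a log2 ratio of 0.13, and Ctrb1, chymotrypsinogen, 0.02. These 5 genes were the positive ones.

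Cela2a, an elastase, was the 1 enzyme of the rule past the 2-fold limit, at 40472 CPM in the low tier, 26040 in the middle and 20049 in the high (log2 ratio -1.01). Its low cells ran from 0 to 117174 CPM with a median of 39720 and its high cells from 536 to 49425 with a median of 10638. Cpa1, procarboxypeptidase A, stood at -0.51, Pnlip, the pancreatic lipase, at -0.24, Try4, a trypsinogen, at -0.22 and Prss2, a trypsinogen, at -0.06. Trypsinogens and chymotrypsinogens share sequence between copies, and the counting of reads common to them is not stated, so the split among Try4, Try5 and Prss2 is uncertain.

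Enzymes outside the rule showed the same mixture. Ctrl, a chymotrypsin-like protease, stood at 24225, 16623 and 13922 CPM from low to high (-0.80), and Cel, the bile salt-activated lipase, at 9821, 5874 and 5020 (-0.97, just under the limit). Amy1, which encodes an amylase, had 84, 73 and 58 UMIs (350, 135 and 146 CPM, -1.26) and Amy2a5, a pancreatic amylase, 104, 127 and 91 UMIs (-0.92). Of the 3 amylase and nuclease genes over the floor, Rnase1, the pancreatic ribonuclease, went the other way, at 18981, 24194 and 28557 CPM (0.59). Its cells had a median of 14940 CPM in the low tier and 29399 in the high, with ranges of 718 to 85865 and 8022 to 86735. The median of that list was -0.92 while its summed level was higher in the high tier, 28931 against 19764 CPM, because Rnase1 held most of the UMIs.

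Secreted proteins that are not enzymes differed in both directions. Spink1, the secreted trypsin inhibitor, stood at 5510 CPM (5217 to 5815) in the low tier, 6967 in the middle and 8827 (8538 to 9124) in the high (0.68). Reg1, a regenerating-family lectin, was at 16359, 23038 and 24343 CPM (0.57) and Reg3b, an antibacterial lectin of that family, at 533, 835 and 909 (0.77). Zg16, a lectin of the zymogen granule membrane, was at 10787, 13575 and 14996 CPM (0.48). Reg2 differed from Reg1, at 3529, 2094 and 2076 CPM (-0.77), and Reg3d stood at -0.61. Nupr1, a stress-induced chromatin protein, stood at -0.43. Of 8 genes of the Reg and acute phase list that passed the floor 4 were positive and 4 negative and none passed the 2-fold limit. Their median was -0.09, while the summed level was 31017 CPM in the low and 39992 in the high tier.

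Several of these genes also differed between the 2 clusters within the low tier. The clusters were made from the same counts, so these values are descriptions. Cela2a stood at 88963 CPM in the 36 small-cluster cells of the low tier, at 24996 in its 50 large-cluster cells and at 20049 in the high tier. Ctrl stood at 52213, 14728 and 13922, Cel at 22278, 5616 and 5020, and Reg2 at 8548, 1862 and 2076 CPM in the same order. Clps was the reverse, at 18730, 78140 and 93662 CPM. For these 5 genes the large-cluster cells of the low tier were nearer to the high tier than to the small cluster. Rnase1 (14737, 21178 and 28557 CPM) and Spink1 (4109, 6199 and 8827) had the large-cluster low cells in between. Reg1 (18483, 15965 and 24343) and Zg16 (11139, 10753 and 14996) had both kinds of low cell below the high tier. The small-cluster cells had a median of 103 genes at 1000 UMIs and 1.81% of UMIs from ribosomal protein genes, against 210 genes and 9.38% in the large-cluster low cells and 198 and 8.09% in the high tier. Their lower gene number moved with these values, and its part in them was not tested.

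**Figure D3:**
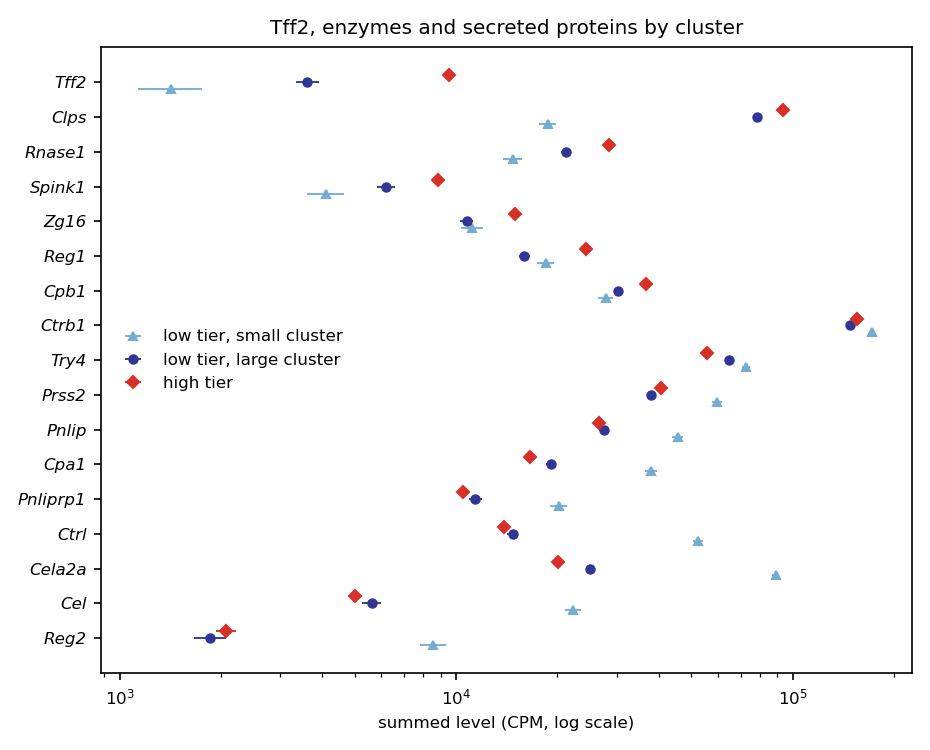
Summed level of Tff2, of digestive enzymes and of other secreted proteins in CPM on a log scale, for the 36 small-cluster and 50 large-cluster cells of the low tier and the 91 cells of the high tier, with exact 95% Poisson intervals. For Cela2a, Ctrl, Cel and Reg2 the small cluster stands apart to the right and for Clps to the left, while for Tff2 the 3 sets are spread out at 1419, 3613 and 9510.

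Within the large cluster alone, tiers of 77, 79 and 77 cells had Tff2 levels of 4232, 6759 and 9838 CPM and medians of 209, 198 and 199 genes at 1000 UMIs. Depth still differed, with medians of 1773, 2580 and 2815 UMIs per cell. Cells of 31726, 43645 and 42616 UMIs were among the 340062 UMIs of this low tier, so its summed levels leaned on few cells. The deepest cell of this high tier had 24421 of 336770 UMIs. In that contrast 450 genes were over the floor, of which 3 (0.667%) were higher and 14 (3.11%) lower, with a median log2 ratio of -0.04. Spink1 (0.51), Rnase1 (0.48), Reg3b (0.45), Zg16 (0.34), Cpb1 (0.32) and Reg1 (0.32) remained positive there. Cela2a went from -1.01 to -0.59, Ctrl from -0.80 to -0.14, Cel from -0.97 to -0.28, Clps from 0.62 to 0.15 and Reg2 from -0.77 to 0.12. Try4 and Try5, trypsinogens, stood at -0.45 and -0.46, and Nupr1 stood at -0.41, close to its value over all acinar cells. The lowest ratio there, chosen after its values were seen, was that of the unnamed model 1810009J06Rik, with 136, 7 and 3 UMIs, and it rested on few cells, since 5 low cells held the 136 UMIs and 1 of them 46.3%.

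The genes called higher, apart from Tff2, were low in abundance. Hist1h1c, a linker histone that packs chromatin, had 13, 82 and 77 UMIs in 8, 38 and 35 cells of the low, middle and high tier, or 54.1, 152 and 193 CPM (log2 ratio 1.79, 0.98 to 2.81). Its low tier rested on few cells, since 1 cell gave 30.8% of the 13 UMIs. Ift20, a protein of cilium and Golgi transport, had 15, 57 and 68 UMIs in 12, 35 and 38 cells (1.41, 0.63 to 2.36). Copz1, a subunit of the COPI coat of Golgi vesicles, had 26, 99 and 96 UMIs (1.13, 0.52 to 1.84). Vcp, the ATPase that draws misfolded proteins out of the endoplasmic reticulum, had 25, 95 and 89 UMIs (1.08, 0.45 to 1.80). All 4 were seen in more cells of the high than of the low tier after thinning to 1000 UMIs, at 19.8% against 5.49% for Hist1h1c, 13.2% against 4.40% for Ift20, 30.8% against 13.2% for Copz1 and 26.4% against 8.79% for Vcp. The genes were chosen for their ratio in these same counts, so this direction follows from the choice and is no check. At that depth the low tier also held fewer genes per cell in general, a median of 143 against 198.

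The other named genes of this side were Tomm7, a part of the mitochondrial import pore (1.13), Pcbp1, an RNA-binding protein (1.07), Snhg9 (1.05) and Snhg18 (1.02), both small nucleolar RNA host genes, and Ndufa4, a subunit of the respiratory chain (1.00). Ndufv3, a complex I subunit (0.98), Lbh (0.98) and Etfb, an electron transfer flavoprotein subunit (0.97), stood just below the limit. Each had 12 to 28 UMIs in the low tier and 43 to 93 in the high. Of the 12 genes named for the highest ratios, all stood in rising order over the 3 grades, and all were positive in the large cluster, where Ift20 was at 1.18, Pcbp1 at 0.96, Hist1h1c at 0.68 and Lbh at 0.32. Over all genes, 139 of 413 stood in rising order and 211 of 450 were positive in the large cluster. Rising order needs a higher level in the high than in the low tier, for which the 12 genes were chosen. The 229 of 413 genes with a positive ratio are therefore the nearer base for it. The large cluster holds all 91 high cells and 50 of the 91 low cells that chose these 12 genes, so their signs there are no check. Rps27l, a ribosomal protein paralog chosen after its values were seen, had 82 and 348 UMIs in the low and high tier (1.35, in 32 and 75 cells). Its 36 small-cluster low cells held 2 UMIs, 33.0 CPM, against 461 CPM in the large-cluster low cells and 873 in the high tier.

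**Figure D4:**
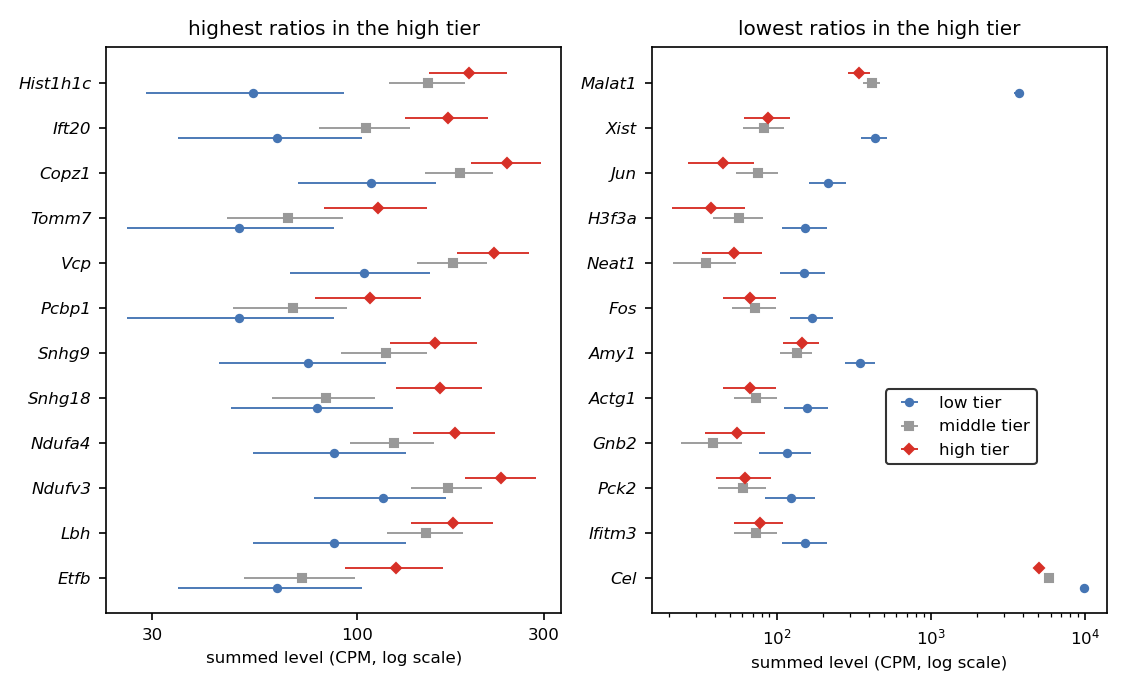
Summed level in CPM on a log scale of the 12 genes with the highest (left) and the 12 with the lowest (right) log2 ratio, in the low, middle and high tier, with exact 95% Poisson intervals. On the left the middle tier lies between the other sets for every gene, while on the right it lies nearer to the high than to the low tier, as for Malat1 at 3721 CPM in the low tier, 414 in the middle and 344 in the high.

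The genes called lower rested in large part on 5 cells. These were the low-tier cells that clustered outside both acinar clusters, with 11.4% to 29.6% of UMIs from the enzymes and 1.79% to 29.7% from mitochondrial transcripts, and they held 3.49% of the UMIs of the low tier. They held 712 of its 894 Malat1 UMIs (79.6%), 80 of its 104 Xist UMIs (76.9%), 69.4% of its Neat1, 55.8% of its Jun and 39.0% of its Fos. Malat1, a long noncoding RNA retained in the nucleus, stood at 3721 CPM in the low tier, 414 in the middle and 344 in the high (log2 ratio -3.43, -3.71 to -3.17). Its median cell was at 0 CPM in the low tier and at 251 in the high, and the highest low cell reached 144470. Without the 5 cells the log2 ratio of Malat1 was -1.19. Xist, the RNA that coats the inactive X chromosome, went from -2.29 to -0.25 and Neat1, the scaffold RNA of nuclear paraspeckles, from -1.49 to 0.12. Without them 14 of 404 genes were called higher and 6 lower.

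Markers of some other cell types stood highest in the low tier, and those of others did not. Summed endothelial markers stood at 354, 33.3 and 27.6 CPM in the low, middle and high tier, with 0, 3 and 3 of 9 markers at 0. Macrophage or dendritic markers stood at 79.1, 9.24 and 12.5 CPM, with 5, 7 and 6 of 9 at 0, and ductal markers at 812, 458 and 587 CPM, with 2, 4 and 2 of 12 at 0. Endocrine markers (95.7, 55.5 and 55.2 CPM) and B or plasma markers (33.3, 11.1 and 17.6) were also highest in the low tier. Erythroid markers (171, 521 and 148 CPM) and T or NK markers (12.5, 14.8 and 0 CPM, from 3, 8 and 0 UMIs) were highest in the middle tier. A single middle-tier cell had 9.97% of its UMIs from markers of other types, against a median of 0.072% in that tier. Which types these were is not given, so the middle-tier values may rest on few cells. Mesenchymal markers (4.16, 5.55 and 10.0 CPM) were highest in the high tier. Fabp4, a lipid-binding protein of capillary endothelium and fat, chosen after its values were seen, had 42, 17 and 9 UMIs, and the 5 cells held 31.0% of the 42. The part of these other cell types was not tested. Within the large cluster, whose cells exclude the 5, other-type markers took 0.119%, 0.123% and 0.0858% of UMIs in its low, middle and high tier.

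Jun and Fos, immediate early transcription factors that respond quickly to stimuli and to tissue dissociation, had negative ratios with and without the 5 cells. Jun had 52, 41 and 18 UMIs (-2.23, -3.12 to -1.46) and stood at -1.13 without the 5 cells and -1.22 in the large cluster. Fos had 41, 39 and 27 UMIs (-1.32, -2.09 to -0.60) and stood at -0.67 and -1.09. Egr1, a transcription factor of the same class, was at -0.93 and Jund at 0.00. H3f3a, a replication-independent histone, had 37, 31 and 15 UMIs (-2.00) and was at -1.84 in the large cluster, with 40.5% of its low-tier UMIs in 1 cell. Actg1, a cytoskeletal actin, was at -1.21 and -1.03 in the same pair of contrasts and Ifitm3, an interferon-induced membrane protein, at -0.98 and -1.24. Gnb2, a G protein subunit, stood at -1.07 with 28 and 22 UMIs, and Pck2, a mitochondrial gluconeogenic enzyme, at -0.99 with 30 and 25.

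Lists of the secretory pathway had small positive medians. Of 12 endoplasmic reticulum chaperones and stress genes over the floor none passed the 2-fold limit, 7 were positive and 5 negative, and the median log2 ratio was 0.46 beside 0.09 for all genes. The summed level of the list was 4257 CPM in the low and 4535 in the high tier, a log2 ratio of 0.09. A summed ratio weighs abundant genes most and is not the same measure as a median over genes. That summed ratio was -0.07 when cells were ranked by Tff2 over UMIs outside the enzymes, and it was also below 0 under barcode ending 1 alone. Hsp90b1, a chaperone of the endoplasmic reticulum, had 22, 67 and 71 UMIs (0.94, ratio 1.19 to 3.30), Hspa5, the main chaperone of that compartment, 46, 160 and 141 (0.88, ratio 1.32 to 2.64), and P4hb, which forms disulfide bonds, 120, 389 and 334 (0.74, ratio 1.36 to 2.09). Pdia2, the pancreatic disulfide isomerase, went the other way at 1494, 957 and 1022 CPM (-0.55). Herpud1, a part of the degradation machinery, was at -0.50 and Ppib, a prolyl isomerase, at -0.28. In the large cluster 14 genes of this list were over the floor, 12 of them positive, with a median of 0.33 beside -0.04 for all genes, and Pdia2 there was at 0.13.

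The genes that bring secretory proteins into the endoplasmic reticulum had a median of 0.49, with 9 of 10 positive and none past the limit. Sec61b and Sec61g, subunits of the translocation channel, were at 212 and 407 CPM (0.93) and at 441 and 763 CPM (0.79) in the low and high tier, and Srp9, of the signal recognition particle, at 158 and 279 (0.80). Ssr4, of the translocon-associated complex, stood at -0.08. In the large cluster the median of this list was 0.24. Vamp8, a granule membrane protein for exocytosis, had 27, 71 and 88 UMIs (0.96), and Cckar, the cholecystokinin receptor, 21, 75 and 67 (0.92), while P2rx1, an ATP-gated channel, was at 0.13. Tmed10, a cargo receptor between the endoplasmic reticulum and Golgi that was chosen after its values were seen, was the 1 gene other than Tff2 and Ift20 called higher in the large cluster, with 19, 42 and 41 UMIs (1.10).

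**Figure D5:**
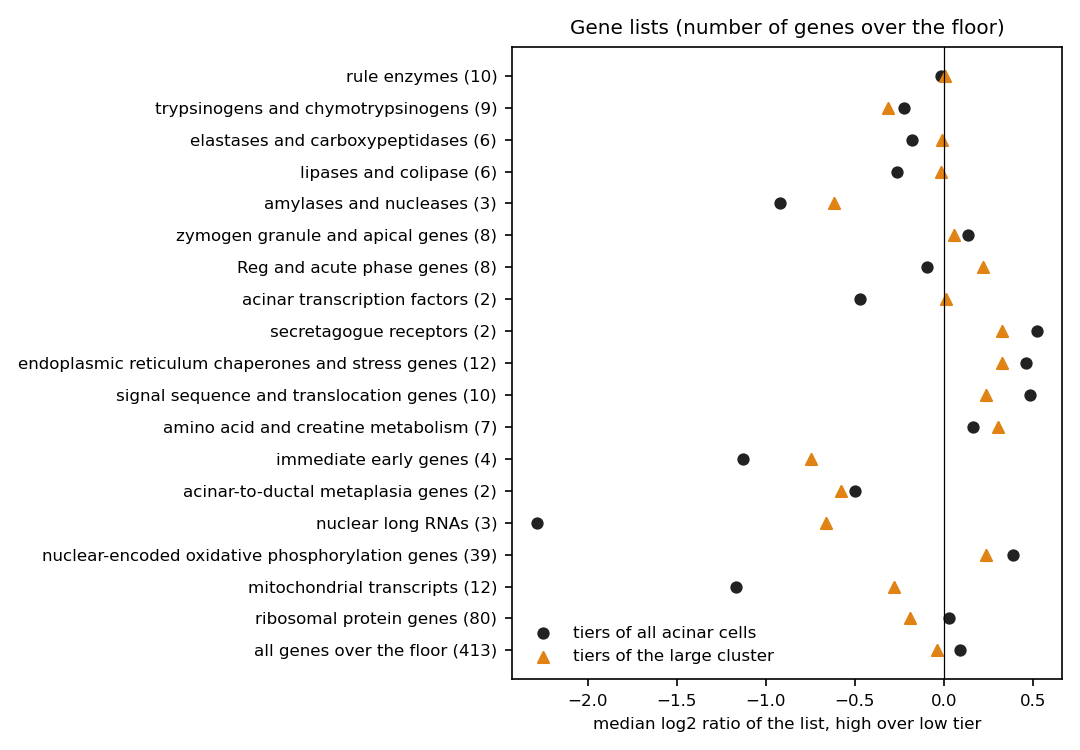
Median log2 ratio of the high over the low tier for each gene list, with the number of genes over the floor in parentheses, for tiers of all 275 acinar cells (circles) and of the large cluster (triangles). Translocation, chaperone and oxidative phosphorylation lists lie to the right of all genes (0.09), and mitochondrial transcripts move from -1.17 to -0.28 between the 2 contrasts.

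Nuclear and mitochondrial genes of the respiratory chain lay on opposite sides. Of 39 nuclear-encoded oxidative phosphorylation genes over the floor 29 were positive and 10 negative, 1 (Ndufa4) passed the limit, and the median was 0.39. Uqcrq, a complex III subunit, stood at 445, 591 and 695 CPM (0.64) and Atp5e, an ATP synthase subunit, at 345, 466 and 580 (0.74). All 12 mitochondrial transcripts over the floor were negative and 7 passed the limit, from mt-Nd4 (-1.49) to mt-Co1 (-1.15), with a median of -1.17, although their summed log2 ratio was 0.30 under barcode ending 2 alone. Of these, mt-Atp6 stood at 4528 CPM in the low tier, 1416 in the middle and 1739 in the high. In the large cluster the nuclear list had a median of 0.24 with 30 of 42 positive, and the mitochondrial transcripts had a median of -0.28 with 1 of 12 positive and none past the limit. The share of mitochondrial transcripts is also a common measure of cell damage, and its part was not tested.

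Transcription factors and cycle genes were near the limit of detection. Of 11 acinar transcription factors 2 passed the floor. Rbpjl, the acinar partner of PTF1A, had 41, 68 and 35 UMIs (-0.95, and -0.17 in the large cluster), and Xbp1, which drives the secretory machinery, 38, 70 and 64 (0.01). Ptf1a itself had 8, 37 and 16 UMIs, Bhlha15, which encodes MIST1, 7, 17 and 18, and Nr5a2, a nuclear receptor of acinar identity, 0, 14 and 17. None of 29 genes of S and G2M phase passed the floor, and together they had 95.7 CPM in the low tier, 53.6 in the middle and 97.9 in the high. Mki67, a marker of dividing cells, had 0, 1 and 1 UMIs. Of the acinar-to-ductal metaplasia genes, Clu, a secreted chaperone that is also a ductal marker, stood at 616, 316 and 404 CPM (-0.61) and Krt18, a keratin of simple epithelia, at 154, 201 and 118 (-0.39). Ribosomal protein genes had a median of 0.03 over 80 genes and of -0.19 in the large cluster, so the sign turned between the contrasts.

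Across single cells, the genes whose share followed Tff2 most closely were Uqcrq, Tpt1, Spink1, Zg16, Rnase1, P4hb, Reg1, Vcp, Sec61g and Atp5l, with Spearman correlations from 0.39 for Uqcrq to 0.31 for Atp5l over 275 cells and among 315 genes seen in at least 20% of them. Over the 233 cells of the large cluster Zg16 stood at 0.31, Reg1 at 0.28 and Spink1 at 0.24 among 377 genes. All cells share the same libraries and a range of depths, so these values are descriptions.

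With tiers cut again within each barcode ending, the Tff2 ratio that the ranking fixes was 1.69 on the log2 scale under ending 1 (76 cells in each outer tier) and 1.74 under ending 2 (15 cells in each). Ending 1 holds 229 of the 275 cells from which the named genes were chosen, so their signs there are no check. Under ending 2, whose cells were also part of the choice, 2 of the genes named higher and 4 of those named lower had at least 10 UMIs. Of these, 2 and 3 had the same sign, and the exception was Malat1, with 5 UMIs in the low and 9 in the high tier there.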

How the data were processed

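The deposited table holds raw UMI counts per gene and cell (14793 gene rows, 728 cells). The submitters' processing notes name Cell Ranger and mm10. Versions, roles and the authors' filter on cells and genes are not stated. The 4 symbols on 2 rows each were summed. As no label ties cells to the 2 samples, the planned tests on sums per sample were not run. Depth was 1004 to 53222 UMIs per acinar cell.

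Cells were clustered with scanpy 1.11.5 (counts scaled to 10000 per cell, 2000 variable genes, 20 principal components, 15 neighbours, Leiden resolution 0.5, seed 0). Scrublet called 3 doublets (0.412%), 1 of them an acinar cell, and all were kept.

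UMIs were summed over the cells of each tier and scaled to CPM over all UMIs of the tier. Log2 ratios used a prior of 0.5 counts, a floor of 50 UMIs over both tiers and a call at a ratio of 2. Intervals are exact 95% Poisson (levels) and Clopper-Pearson (shares and, conditional on the summed count, ratios). They cover counting error only, and neither free RNA nor differences between animals. The functions were tested on simulated counts.

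Named genes were the 12 of highest and the 12 of lowest log2 ratio that were detected in 10% or more of the higher tier's cells, leaving out Tff2, the 10 enzymes, mitochondrial and ribosomal protein genes and unnamed models. Members of the gene lists over the floor were also named. The members and lists were chosen with earlier results of these data known. Coordinates are from GENCODE M21 (GRCm38). Promoter sequences were found in RefSeq for 30 of 35 genes looked up. The alternatives tried were other enzyme limits, floors, priors, folds, totals, cuts, rankings and depths, and subsets of cells.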

Additional observations from a re-analysis of the deposited data

How the results depend on the processing

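No paired analysis was possible because no cell is tied to a replicate, and for the same reason no replicate could be left out. Over 24 alternatives, 2 of them chosen after seeing the data (without the 5 cells outside both acinar clusters, and without the deepest cell of each tier), 25 of 34 named genes and enzymes and the summed levels of 9 of 22 gene lists kept 1 sign. These counts overstate stability. The other floors and the ratio of 1.5 leave every log2 ratio as it was, so no sign could turn there. Under ending 2, Jun and Fos had 0 UMIs in both tiers, and Actg1 and Pck2 had 3 in each. Their signs there came only from the prior and the unequal totals of the tiers. The enzyme limit took 288 cells at 5% and 271 at 20%, against 275. The Tff2 ratio of the high over the low tier, 3.16, was 3.82 with the 5% limit, 2.45 when ranked within strata of depth, 4.05 with cells weighted equally, 4.92 when thinned, 2.36 when ranked on a random 50% of the UMIs, 2.01 for 2 parts in place of 3, 5.30 for the outer 2 of 4 parts, 2.83 without cells over 10% mitochondrial and 2.32 in the large cluster. Genes called higher and lower, 12 and 19, were 7 and 52 with the 5% limit, 12 and 11 with the 20% limit, 5 and 30 when ranked over UMIs outside the enzymes, 21 and 9 within strata of depth, 47 and 23 with cells weighted equally, 6 and 15 when thinned, 54 and 69 with a floor of 20 UMIs, 4 and 10 with a floor of 100, 1106 and 2760 with no floor, 75 and 52 at a ratio of 1.5, 7 and 19 with a prior of 2 counts, 42 and 21 for the outer 2 of 4 parts, 2 and 2 under barcode ending 2, 3 and 14 in the large cluster and 14 and 6 without the 5 cells. The number of genes tested, 413, changed as well, so these counts have no common base. It was 434 with the 5% limit, 406 with the 20% limit, 465 within strata of depth and 174 when thinned. It was 930 with a floor of 20 UMIs, 251 with a floor of 100 and 9051 with no floor. For the outer 2 of 4 parts it was 299, under ending 2 it was 123, in the large cluster 450 and without the 5 cells 404. Among log2 ratios of at least 1 in size, those that turned sign were Gnb2 (0.21 when thinned), Neat1 (0.014 in the large cluster and 0.12 without the 5 cells) and, under ending 2, Malat1 (0.17), Xist (2.19) and the summed immediate early genes (0.61), nuclear long RNAs (0.57) and mitochondrial transcripts (0.30). The ending 2 values of Xist and Malat1 rested on few molecules. Xist had 0 UMIs in the low and 3 in the high tier there, and Malat1 5 and 9. Smaller ratios turned sign for Lbh (down to -0.62), Ctrb1 (-0.043), Cela1 (-0.038), Prss2 (up to 0.092) and Cpb1 (-0.013), and for the summed levels of 10 lists, those of the rule enzymes, trypsinogens and chymotrypsinogens, elastases and carboxypeptidases, acinar transcription factors, secretagogue receptors, chaperones, amino acid metabolism, progenitor genes, cycle genes and ribosomal protein genes. The Lbh value came from ending 2, with 1 UMI in each tier. The cause of these changes was not tested. Most called genes outside the enzymes had under 100 UMIs in either tier, which limits the precision of their ratios.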
